A study of Cucumis sativus with 6 samples.

Results

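Pedicle phloem was compared with stalk phloem in cucumber (Cucumis sativus) inbred line 9930, over all genes of the deposited table, in a fit of these organs alone. The comparison uses 4 of the 6 libraries of the series, namely pedicle replicates 1 and 2 and stalk replicates 1 and 2; the other 2 are from fruit phloem. All plants were untreated and of the same line. The organs were harvested together with young fruits 3 days after anthesis (flower opening), and phloem was cut from fixed and sectioned tissue with a laser before RNA amplification and sequencing. In the series' text the libraries of an organ are biological replicates. How many plants went into a library is not stated, nor where pedicle ends and stalk begins. The p-values below therefore set the difference between organs against the spread between these libraries, which is estimated in part from other genes.

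Phloem carries sugars, amino acids, hormones, proteins and RNAs from leaves to growing organs. Its conducting sieve elements lose their nuclei and depend on the companion cells beside them, so that phloem mRNA comes largely from companion cells and phloem parenchyma. In cucurbits phloem lies on both sides of the xylem, its sap is rich in structural phloem proteins and lectins that plug wounded sieve tubes, and sugar moves as raffinose-family oligosaccharides as well as sucrose. The pedicle carries the flower and then the fruit, so all phloem import into the fruit passes through it. How its phloem differs in expression from phloem of adjoining organs is the question that this comparison addresses.

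Genes are known here only by locus identifiers. None of the identifiers (0 matched) occurs in a RefSeq table of 23999 cucumber genes, so products and functions are not stated, no marker of phloem or of another cell type could be looked up, and the label of the tissue was not checked against markers. Levels are the authors' TPTM scores, in which each library sums to about 10000000 and no correction for gene length is recorded. A comparison of scores between genes is therefore one of shares of the signal, in which longer genes can weigh more. Of 15720 genes in the table, 14926 reached 10 TPTM in at least 2 of the 4 libraries and were tested. The pedicle libraries had a median score of 128 and 133 TPTM, against 140 and 131 TPTM for the stalk libraries. A score of 0 was listed for 510 and 306 genes in pedicle, against 89 and 103 genes in stalk. The numbers of reads behind the scores are not known here. In such tissue samples fewer cells of a type and less RNA per cell cannot be told apart.

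The test separated pedicle from stalk phloem in 1783 genes, or 11.9% of all tested (limma on log2(TPTM + 5), Benjamini-Hochberg adjusted p under 0.05). Of these, 625 (4.19% of tested genes) were higher in pedicle and 1158 (7.76%) were lower in pedicle. The median difference among the genes that rose was 1.71 on the log2 scale, with quartiles of 1.28 and 2.28. Among those that fell it was -1.89, with quartiles of -2.53 and -1.37. Over all tested genes the median was -0.06, with quartiles of -0.59 and 0.41. At an unadjusted p under 0.05, 4234 genes (28.4%) passed. The count depended on which libraries were in the fit. When pedicle replicate 1 was left out, limma called 0 genes (4505 at an unadjusted p under 0.05), and when pedicle replicate 2 was left out it called 1379 (5577). Without either one of the stalk replicates it called 0 genes (1833 at an unadjusted p under 0.05 without replicate 1, and 1884 without replicate 2). Those fits have 1 residual degree of freedom. All fits with fruit included and a library left out, here and below, were added after seeing the data. When the fruit libraries were added to help estimate the spread, leaving out a pedicle library gave 1417 (replicate 1) and 2533 genes (replicate 2), and leaving out a stalk library gave 597 (replicate 1) and 543 genes (replicate 2).

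**Figure D1:**
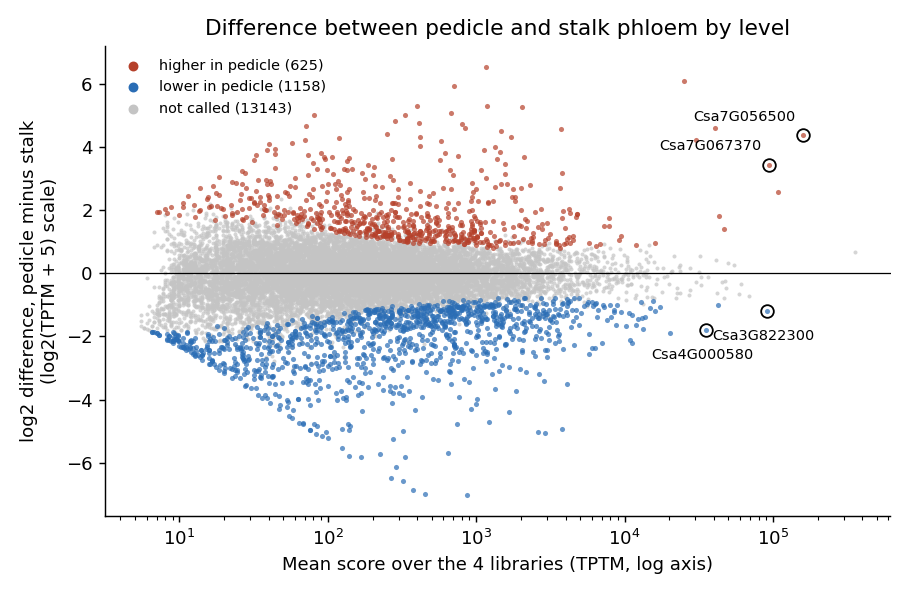
Difference between pedicle and stalk phloem (log2 scale, vertical axis) against the mean score over the 4 libraries (TPTM, log axis), with 1 point per tested gene. Red points are the 625 genes called higher in pedicle, blue points the 1158 called lower and grey points the 13143 not called; the 4 genes named in the text are circled.

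Nearly all called differences were at least 2-fold. Of the 625 genes that rose in pedicle, 584 (93.4%) were at least 2-fold higher, 214 (34.2%) at least 4-fold and 55 (8.80%) at least 10-fold. Of the 1158 that fell, 1106 (95.5%) were at least 2-fold lower, 522 (45.1%) at least 4-fold and 116 (10.0%) at least 10-fold. No gene was called 100-fold higher in pedicle, and 3 were called 100-fold lower. The smallest called differences were 0.81 and -0.78, so that genes with modest differences are missing from both lists. The median standard error of a called difference was 0.32 for genes that rose and 0.34 for genes that fell.

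The 13143 genes not called are only in part shown to be alike. For 3523 of them (26.8%) the 95% confidence interval of the difference lay wholly within a 2-fold change in either direction, and for 11305 (86.0%) within a 4-fold change. In the other 9620 the interval reached a 2-fold change. The point difference of 1537 genes was at least 2-fold and that of 58 at least 4-fold without passing the test. Over all tested genes the interval extended a median of 0.83 to each side of the difference on the log2 scale.

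The 625 genes that rose held nearly as much of the pedicle signal as the 1158 that fell held of the stalk signal. Each library sums to about the same total, so a gain in share by some genes must be offset by losses in others. Genes called higher took 17.0% and 16.7% of all expression in the pedicle libraries, against 3.76% and 3.44% in the stalk libraries. Genes called lower took 6.64% and 6.70% in the pedicle libraries, against 18.7% in each stalk library. The groups do not overlap in either set, which follows from how the genes were chosen. The 10 genes with the largest rise in TPTM alone took 10.1% ± 0.11 of pedicle expression and 1.30% ± 0.21 of stalk expression (SD, n = 2 each). The remaining 615 genes that rose took 6.70% ± 0.15 in pedicle and 2.30% ± 0.011 in stalk. The loss was spread more widely, since the 10 genes with the largest fall took 1.51% ± 0.0053 in pedicle and 3.94% ± 0.024 in stalk.

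**Figure D2:**
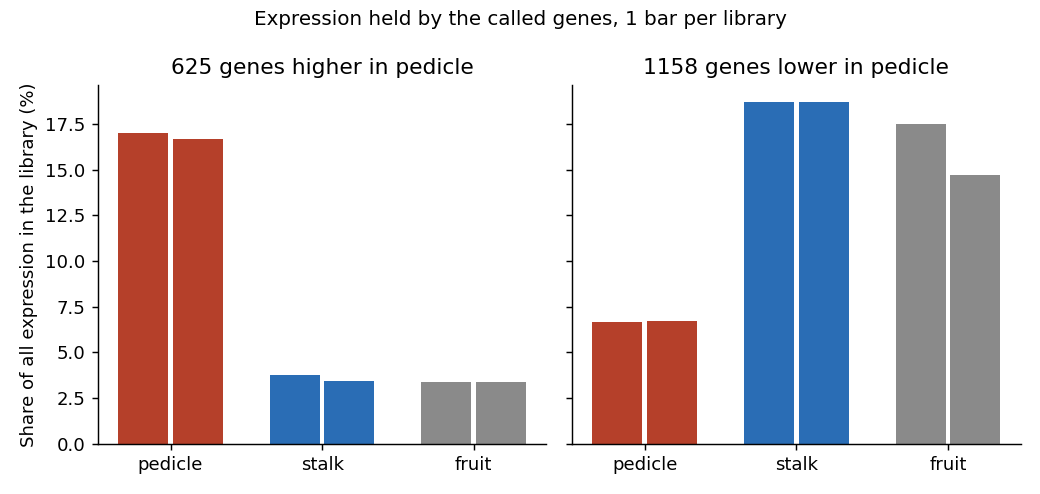
Share of all expression in each library (percent of its summed TPTM, 1 bar per library) held by the 625 genes called higher in pedicle and the 1158 called lower. The 625 genes hold 17.0% and 16.7% in pedicle against 3.76% and 3.44% in stalk; fruit, which did not enter the fit, holds 3.37% and 3.36%.

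Pedicle expression was more concentrated in few genes. In the pedicle libraries 395 and 396 genes together held 50% of all expression, against 534 and 457 genes in the stalk libraries. The 100 genes with the highest scores took 32.7% and 33.2% in pedicle, against 26.4% and 28.8% in stalk. Both pedicle libraries were beyond both stalk libraries in each measure, and with 2 libraries a side the exact two-sided permutation p cannot go below 0.333. Of the 10 genes with the highest mean in pedicle only 1 was also among the 10 highest of stalk, and 7 were called higher in pedicle. The lists of the 100 highest shared 72 genes. Of the 100 highest in pedicle 15 rose and 5 fell, and of the 100 highest in stalk 5 rose and 24 fell.

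Csa7G056500 had the largest rise in TPTM of all called genes. It stood at 312608 and 293673 TPTM in the pedicle libraries, against 15815 and 13464 TPTM in the stalk libraries. Pedicle averaged 303140.5 ± 13389 TPTM and stalk 14639.5 ± 1662 TPTM (SD, n = 2 each), and the log2 difference was 4.38 ± 0.24 (SE, with a limma adjusted p of 2.54e-04). The lower pedicle library was thus far above the higher stalk library, and the gene alone made up 3.13% and 2.94% of pedicle expression, against 0.158% and 0.135% of stalk expression. By mean score it had rank 2 in pedicle and rank 73 in stalk.

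Csa7G067370 followed, with 180033 and 163685 TPTM in the pedicle libraries, against 20156 and 12578 TPTM in the stalk libraries. The log2 difference was 3.43 ± 0.29 (SE, with a limma adjusted p of 6.88e-04). The libraries of the organs did not overlap, as in every called gene. The stalk replicates were further apart, relative to their mean, than the pedicle replicates. Leaving out stalk replicate 1 gave a difference of 3.77, and leaving out stalk replicate 2 one of 3.09. Without pedicle replicate 1 or either stalk replicate, neither Csa7G056500 (adjusted p = 0.0560, 0.213 and 0.240) nor Csa7G067370 (0.0575, 0.213 and 0.266) passed in limma with only these organs; with fruit in the fit both passed whichever library was left out.

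Among genes that fell, Csa3G822300 had the largest loss in TPTM. It had 57953 and 52952 TPTM in the pedicle libraries, against 131378 and 124249 TPTM in the stalk libraries. Pedicle averaged 55452.5 ± 3536 TPTM and stalk 127813.5 ± 5041 TPTM (SD, n = 2 each), and the log2 difference was -1.21 ± 0.24 (SE, with a limma adjusted p of 0.0198). The libraries of the organs did not overlap, as in every called gene. The log2 difference stayed between -1.27 and -1.14 with any single library left out. The adjusted p was then over the threshold in each case, at 0.0686 to 0.403, and it was 0.0542 without the intensity trend. By mean score it had rank 11 in pedicle and rank 2 in stalk.

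Csa4G000580 had 17816 and 13924 TPTM in the pedicle libraries, against 59355 and 49938 TPTM in the stalk libraries. The log2 difference was -1.79 ± 0.24 (SE, with a limma adjusted p of 4.08e-03). Every stalk value was above every pedicle value. The libraries failed to overlap in every called gene and in 57.3% of all tested genes. With a library left out the log2 difference was between -1.97 and -1.61. It passed in every fit with all libraries present and, with fruit in the fit, whichever library was left out (adjusted p from 0.0133 to 0.0392). In fits of these organs alone that lacked a library, which have 1 residual degree of freedom, the adjusted p was 0.0512 to 0.280. The gene fell to 0.178% and 0.139% of pedicle expression, against 0.594% and 0.500% of stalk expression.

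**Figure D3:**
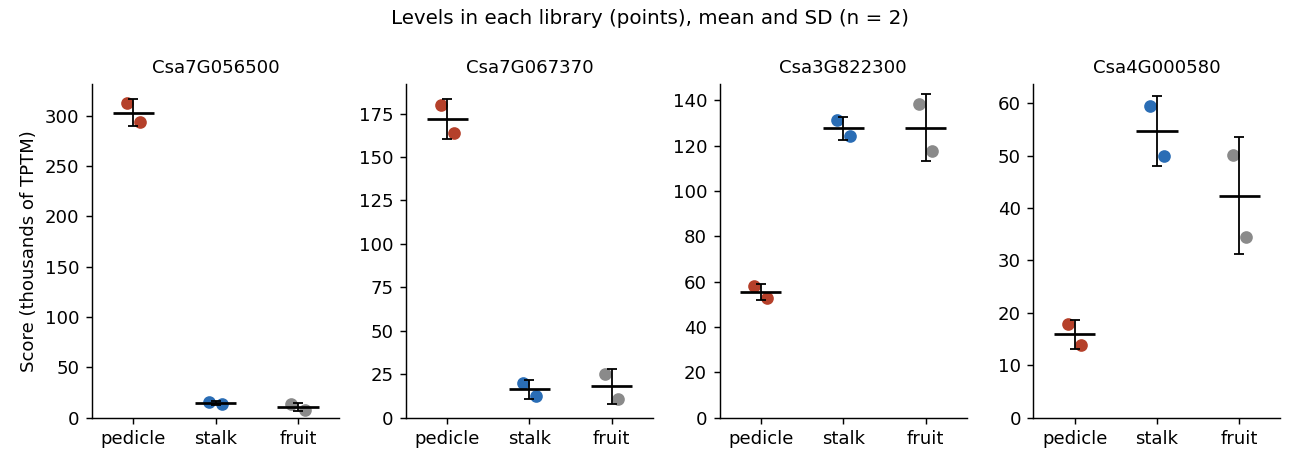
Scores (in units of 1000 TPTM, axes from 0) of the 4 named genes in each pedicle, stalk and fruit library. Points are libraries, horizontal lines means and bars the SD of n = 2; for Csa7G056500 and Csa7G067370 the pedicle points lie above all others, and for Csa3G822300 and Csa4G000580 below all others.

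The gene with the highest score in pedicle was not among the called ones. It had 377818 and 497536 TPTM in the pedicle libraries, against 239495 and 310753 TPTM in the stalk libraries. The point difference was 0.67 ± 0.32 on the log2 scale (SE; limma adjusted p = 0.215), with a 95% interval from -0.07 to 1.41. The libraries did not overlap. The difference was smaller than the smallest called rise, which was 0.81, and what kept it from being called was not tested. This gene was picked for its level after the values were seen.

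The called share grew with the mean score over the 4 libraries. Of 3606 genes under 50 TPTM, 2.25% rose in pedicle and 6.63% fell. Among 7983 genes of 50 to 500 TPTM, 3.96% rose and 6.11% fell. Among 3069 genes of 500 to 5000 TPTM, 6.84% rose and 12.6% fell, and among 268 genes of 5000 TPTM or more, 6.72% rose and 16.4% fell. In every class more genes fell than rose. The standard error had a median of 0.48 in the lowest class and 0.23 in the highest, and the smallest called difference was 1.53 in size in the lowest class and 0.87 in the highest. Low genes thus needed a larger difference to be called.

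Replicate spread differed between the organs, and mostly among low genes. Pedicle replicates differed by more than 2-fold in 2586 genes (17.3%), against 340 genes (2.28%) for stalk replicates, and by more than 4-fold in 395 genes (2.65%), against 12 (0.0804%). The root mean square standard deviation of replicates was 0.789 in pedicle and 0.349 in stalk for genes under 50 TPTM. It was 0.521 in pedicle and 0.293 in stalk for genes of 50 to 500 TPTM, 0.336 and 0.260 in pedicle and stalk for those of 500 to 5000 TPTM, and 0.258 in pedicle and 0.290 in stalk for the highest genes. The part that the wider pedicle spread had in the calls was not tested gene by gene. With a weight for each library, limma called 1972 genes.

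**Figure D4:**
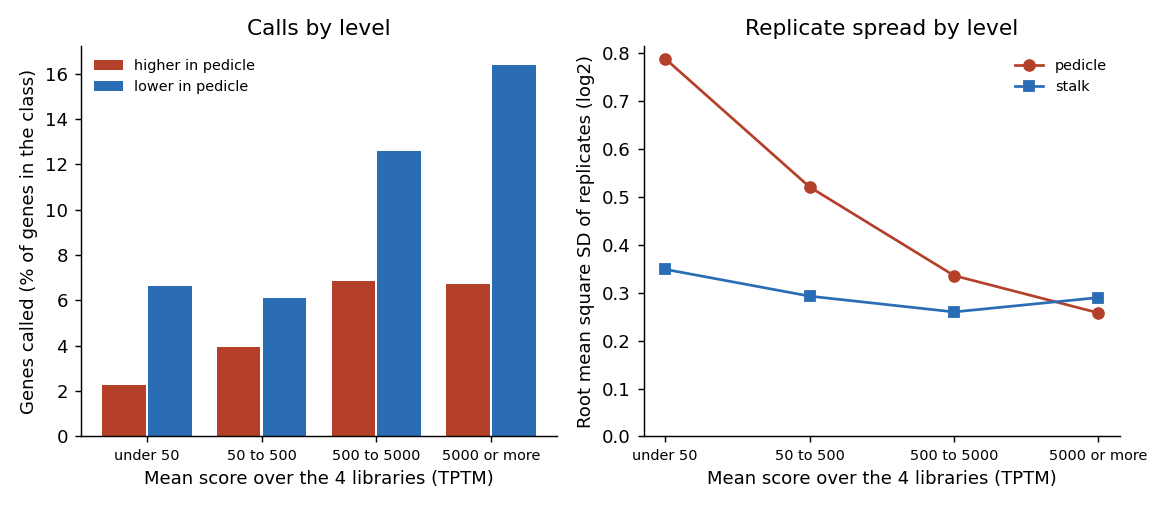
Left, percent of genes called higher (red) or lower (blue) in pedicle in 4 classes of mean score (TPTM). Right, root mean square standard deviation of the 2 replicates (log2 scale) in pedicle and stalk in the same classes; pedicle falls to 0.258 in the highest class, against 0.789 in the lowest, while stalk stays between 0.260 and 0.349.

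Differences were followed in pairs of libraries that have none in common. Pedicle replicate 1 was at least 2-fold above stalk replicate 1 in 1624 genes. Of these, 670 (41.3%) were also at least 2-fold higher in pedicle replicate 2 than in stalk replicate 2, while 270 had the opposite sign and 37 were at least 2-fold the other way. Pedicle replicate 1 was at least 2-fold below stalk replicate 1 in 3022 genes, of which 1261 (41.7%) were at least 2-fold lower in the second pair as well, 625 had the opposite sign and 81 were at least 2-fold the other way. The replicate numbers are not known to pair libraries, and the pairs can as well be crossed. Pedicle replicate 1 was at least 2-fold above stalk replicate 2 in 1757 genes, of which 720 (41.0%) were at least 2-fold higher in the remaining pair, 258 had the opposite sign and 51 were at least 2-fold the other way. It was at least 2-fold below stalk replicate 2 in 2636 genes, of which 1312 (49.8%) were at least 2-fold lower in the remaining pair, 370 had the opposite sign and 44 were at least 2-fold the other way. Over all 14926 tested genes the differences in the pairs had the same sign in 65.6%, and in 70.0% for the crossed pairs. The share of all tested genes at least 2-fold apart in the second pair was not computed. Over the same genes the differences in the pairs had a Pearson correlation of 0.629, and of 0.690 in the crossed pairs. These correlations are across genes, which are not independent replicates.

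**Figure D5:**
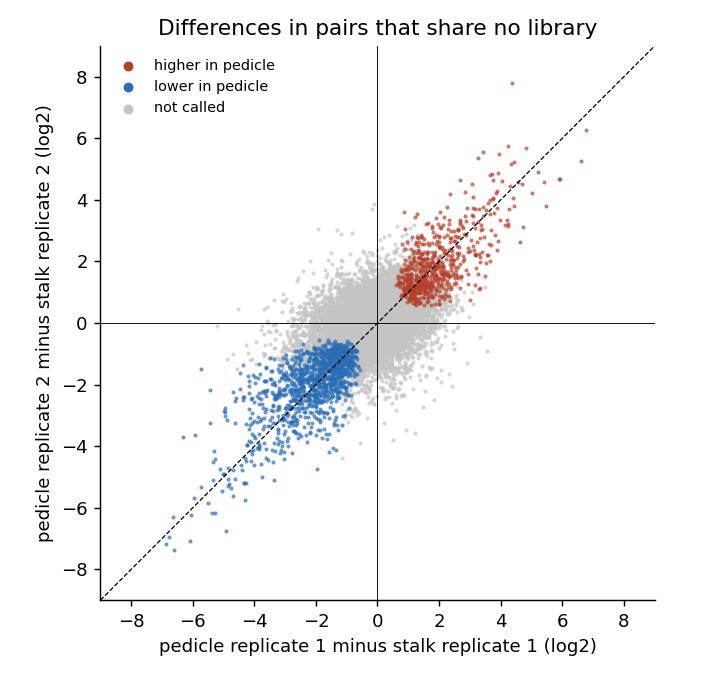
Log2 difference of pedicle replicate 1 from stalk replicate 1 (horizontal axis) against that of pedicle replicate 2 from stalk replicate 2 (vertical axis), with 1 point per tested gene and the line of equality dashed. Called genes lie in the upper right (higher in pedicle) and lower left (lower in pedicle) quadrants, and the grey cloud of genes not called reaches into all 4 quadrants.

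The organs' libraries did not overlap in 8547 of the 14926 genes (57.3%). Both pedicle libraries were above both stalk libraries in 3874 genes (26.0% of all tested) and below both in 4673 (31.3%). With 2 libraries a side, interchangeable libraries without ties would fail to overlap in a share of 0.333 of genes. A stricter gap removed most of these. In 559 genes (3.75% of all tested) the lower pedicle library was at least 2-fold above the higher stalk library on the TPTM + 5 scale. Of these, 452 were called. In 1087 genes (7.28%) the higher pedicle library was at least 2-fold below the lower stalk library, and 886 of them were called. A gap of at least 4-fold was found in 135 genes higher in pedicle (0.904%) and 298 lower (2.0%), all of them called. A gap of at least 10-fold was found in 35 (0.234%) and 64 genes (0.429%). The gap and the call use the same 4 libraries, so the calls are no separate support.

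Some genes were near silent in one organ. Both pedicle libraries listed 63 tested genes at 0, of which 57 were called lower in pedicle; both stalk libraries listed 11 at 0, and all 11 were called higher in pedicle. With at most 5 TPTM in both libraries of the low organ, 273 genes were low in pedicle and 169 of them were called, and 86 were low in stalk and 44 of them were called. Such genes had to reach 10 TPTM in both libraries of the other organ to be tested, so these call rates cannot be set against the 11.9% of all tested genes. Their levels in the other organ were mostly modest. The 169 had a median of 35.0 TPTM in stalk, with a range from 13.0 to 907.5, and the 44 a median of 35.0 TPTM in pedicle, from 14.0 to 161.5. Pedicle libraries also listed more genes at 0 over the whole table, and the part of this in the result was not tested.

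The fruit libraries did not enter the fit and place these genes in an organ that it did not see. Genes called higher in pedicle had a median level of 459 TPTM in pedicle, 128 TPTM in stalk and 146 TPTM in fruit. Genes called lower had a median of 113 TPTM in pedicle, 440 TPTM in stalk and 412 TPTM in fruit. The mean log2 level of fruit was nearer to stalk than to pedicle in 524 of the 625 genes that rose (83.8%) and in 941 of the 1158 that fell (81.3%), and in 8093 of the 13143 genes not called (61.6%). Fruit lay past pedicle in 23 of the genes that rose (3.68%) and in 46 of those that fell (3.97%), against 3479 of those not called (26.5%). Fruit lay past stalk in 289 of the genes that rose (46.2%), 490 of those that fell (42.3%) and 5947 of those not called (45.2%). The distances use the same pedicle and stalk libraries that chose the genes, so these are descriptions of levels and not tests.

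In fruit, Csa7G056500 had 13458 and 8025 TPTM in the fruit libraries, Csa7G067370 had 25237 and 10712 TPTM, Csa3G822300 had 138546 and 117585 TPTM and Csa4G000580 had 50197 and 34518 TPTM. In each of the 4 genes both fruit libraries lay on the stalk side of both pedicle libraries. Fitted in the same way, each pair alone, pedicle against fruit gave calls in 15.2% of tested genes and stalk against fruit in 6.64%, against the 11.9% for pedicle against stalk. These comparisons share libraries and rest on different replicate spreads.

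Called genes came from every chromosome number written in the identifiers. The called share ran from 10.3% for chromosome 5 to 13.5% for chromosome 2, and on each of chromosomes 1 to 7 more genes fell than rose. Some genes next to each other in identifier number, with at most 50 between their numbers, were called in the same direction. Of 624 genes that rose and carry a chromosome number, 94 (15.1%) had a tested neighbour that rose, where 6.01% of all 14866 such genes had one. Of 1150 genes that fell, 193 (16.8%) had a neighbour that fell, where 11.4% of all had one. Runs of at least 3 numbered 5 among genes that rose and 8 among genes that fell. In each direction there was 1 run of 4, the longest. Each held 1 gene that reached 10 TPTM only in the organ where it was higher. It had place 4 in the run that rose and place 2 in the run that fell. Whether called genes lie together was not tested.

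The run of 4 genes that rose lies on chromosome 7 and includes Csa7G067370 in place 3. The gene in place 2 reached 195445 and 173174 TPTM in the pedicle libraries, against 37036 and 25366 TPTM in the stalk libraries, and differed by 2.59 ± 0.28 on the log2 scale (SE; limma adjusted p = 1.74e-03). The outer genes were far lower, with 167 and 113 TPTM in pedicle against 12 and 25 TPTM in stalk for place 1, and 14 TPTM in both pedicle libraries against a listed 0 in both stalk libraries for place 4. The run of 4 that fell lies on chromosome 2, with log2 differences from -1.06 to -2.98. Neighbouring genes can be near-identical copies or can overlap. The files hold neither the sequences nor how the authors assigned reads that fit more than 1 gene, so how far such neighbours share reads was not tested, Csa7G067370 included.

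The balance of higher and lower calls depended on the scaling. As deposited, 64.9% of called genes were lower in pedicle. The share was 61.4% with TMM factors, 56.3% after rescaling without the 10 highest-scoring genes of each library, a setting chosen after seeing the data, and 54.9% with quantile normalisation. These settings gave median differences of all tested genes of -0.015, 0.051 and 0.040, against -0.064 as deposited.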

How the data were processed

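The authors deposited 1 table with a whole-number expression score, TPTM, for each gene and library. The submitters' processing notes name TopHat and HTSeq, with versions, build and gene models not given in the sources used here. Every column sums to just under 10000000 (9991842 to 9995581), so the scores were read as normalised and rounded values and no count model was used. Reads behind a score cannot be recovered from rounded values. The table lists genes whose mean is 10 TPTM or more in some organ.

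Scores were analysed as log2(TPTM + 5) for genes that reached 10 TPTM in 2 or more of the 4 pedicle and stalk libraries, which left out 794 genes. Limma 3.58.1 in R 4.3.3 fitted 1 term for the organ, with an intensity trend, 2 residual and 5.81 prior degrees of freedom. Fold changes on this scale understate those of low genes. The pipeline was also run on simulated data with independent genes and normal noise. That run cannot give the error rate of the calls in these libraries, and its outcome is not reported here. The named genes are the 2 called genes with the largest difference of mean TPTM in each direction; without products, planned lists by product could not be used. The comparison, the rule and the settings were chosen with earlier results of these data known. Alternatives were the fit of all 3 organs, other pseudocounts, filters, scalings and priors, library weights, a replicate block and leaving out each library.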

Additional observations from a re-analysis of the deposited data

How the results depend on the processing

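The count of 1783 genes (625 higher and 1158 lower in pedicle) stayed within 1.5 times when all 3 organs were fitted, with other pseudocounts, filters, scalings and priors and with library weights, from 1287 without the intensity trend to 2090 with all 3 organs. With single libraries left out and only these organs fitted, 0 to 1379 genes were called (0 to 392 higher and 0 to 987 lower), and with fruit in the fit, a setting added after seeing the data, 543 to 2533 genes (144 to 769 higher and 399 to 1764 lower). Such a fit assumes that the lone library left varies like the others. Without a stalk library but with fruit in the fit, the counts were 597 (183 higher, 414 lower) without replicate 1 and 543 (144 and 399) without replicate 2. For pedicle the same fit gave 395 higher without replicate 1 and 1764 lower without replicate 2. Quantile normalisation moved the median difference to 0.040 and rescaling without the most abundant genes to 0.051. A replicate block by number gave 2342 genes. Replicate differences correlated across genes at -0.122 between the organs, so the numbers do not show a pairing; a crossed replicate block gave 2882 genes (1036 higher and 1846 lower). The depth behind the scores is unknown, which limits what can be said of low genes.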
